A study of Mus musculus with 2 samples.

Results

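A set of 523 MEF2A peaks had their summit inside an annotated exon and away from the start of any protein-coding gene. They were chosen by position alone from the 16839 peaks called on the mm9 mouse assembly. The summit is the single base that the authors' list marks in each peak. A peak was taken when its summit lay within any GENCODE vM1 exon. The summit also had to lie over 1 kb from every transcription start site (TSS) of a GENCODE vM1 protein-coding transcript. Of the 13225 peaks over 1 kb from such a TSS, called distal here, these exonic peaks were 3.96% (95% Wilson interval 3.64 to 4.30). The other distal peaks were 6530 with a summit in an intron and 6172 between genes, and 3614 peaks lay within 1 kb of a TSS.

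Chromatin immunoprecipitation with an antibody against MEF2A, followed by sequencing, was done in CH12.LX, an immortalised B-cell lymphoma line from a female mouse of strain B10.H-2aH-4bp/Wts. The series holds 1 group of 2 biological replicates, numbered 1 and 2, from separate biosamples of this 1 line, with no treatment, time course or second factor named. The labels name a possible control library, which was not analysed here. The data used here are peak lists, which leave the depth of reads unknown, and no expression was measured against which the identity of the line could be checked.

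MEF2A is a MADS-box transcription factor of the myocyte enhancer factor 2 family, which binds an AT-rich, nearly symmetrical DNA element. The family is best known for switching on muscle genes, and its members also act in lymphocytes, where MEF2C takes part in B cell development and in the response to the B cell receptor. Transcription factor binding sites are most often studied in promoters and enhancers. When a site lies in an exon, the same bases can also encode protein or form part of a mature transcript.

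A short stretch around MEF2 elements shows what the exonic peaks hold. The MEF2 consensus was matched exactly, on both strands, in a window reaching 50 bp to either side of the summit. These sequences are from mm9 on the strand of the host gene, with the 10-base element in capitals and 10 flanking bases on each side. They are the strongest peaks that hold the element in a 3′ UTR or a non-coding exon, and the 3 in coding exons.
Erg, 3′ UTR: ctacctgtgtTTAAAAATAGaaaccatgtc
Sh2d7, 3′ UTR: gtagacaaatCTATTTTTAGggaaatggaa
Dtnb, 3′ UTR: atcctcagtgCTAAAAATAGcgacaccacc
Phf15, non-coding exon: ggctttgtacCTAAAAATAGacttgaacct
Rnf122, non-coding exon: gtgtacgtgtCTATATATAGaagggcacag
D730003I15Rik, non-coding exon: ctccgcctgtCTAATTTTAGctctgaggtg
Nme7, coding exon: cctggaagatCTATTTATAGgcaacaaagt
Bbs2, coding exon: cttcattctaTTATTTTTAAgatggtcacg
Usp34, coding exon: cttgatgcagCTATTTATAGctcaaaggcc

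The Erg element lies at chr16:95581965-95581974, the Phf15 element at chr11:51658357-51658366, the Nme7 element at chr1:166262809-166262818, the Bbs2 element at chr8:96600985-96600994 and the Usp34 element at chr11:23367176-23367185. Phf15 and Dtnb share the same 10 bases, and so do Nme7 and Usp34. Across the 33 elements found in 31 exonic peaks there were 20 different sequences.

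Each exonic peak was given 1 exon class, and a summit in several took the first of coding exon, 5′ UTR, 3′ UTR and exon of a non-coding transcript. Coding exons held 144 peaks (27.5% of the 523), 5′ UTRs 12 (2.29%), 3′ UTRs 173 (33.1%) and non-coding exons 194 (37.1%). Of the coding class, 46 summits also lay in an exon of a later class in another transcript, as did 3 in 5′ UTRs and 21 in 3′ UTRs. The 523 peaks fell in 491 host genes, of which 460 held a single one, 30 held 2 and 1 held 3. That 1 gene was Itsn1, which encodes an endocytic scaffold protein, with a coding peak at rank 7944 and 3′ UTR peaks at ranks 8314 and 13651 by signal.

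Per Mb of sequence, exons held more distal peaks than the rest of the distal genome. GENCODE vM1 exons covered 2.93% of the assembled sequence over 1 kb from a protein-coding TSS. That sequence held 7.15 exonic peaks per Mb of exon, against 5.24 other distal peaks per Mb of the rest. Coding sequence held 4.92 peaks of the coding class per Mb, below both. Chromosomes 10 (5.56 in exons against 6.11 elsewhere), 12 (4.24 against 4.75) and 13 (3.14 against 5.23) went the other way. The exonic count takes in 115 peaks within 1 kb of a TSS of any biotype, and such TSSs were not set apart in these densities. These densities are arithmetic over bases, and mappability was not taken into account.

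Chromosome 11 alone carried 97 of the 523 exonic peaks (18.5%). They were 6.55% of its distal peaks (5.40 to 7.93), the highest share of the 20 chromosomes with peaks, and chromosome 13 had the lowest, with 8 peaks and 1.35% (0.686 to 2.64). Annotated exons covered 5.09% of the distal sequence of chromosome 11 and 2.23% of that of chromosome 13. Chromosome 11 also had 12.8 other distal peaks per Mb, above the 5.24 over all chromosomes, so other distal peaks were dense there too. The part that annotation or the number of copies of the chromosome has in this was not tested.

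The strongest exonic peaks stood among the strongest of the whole list. Peaks were ranked by the authors' signal value within the mm9 list, with 1 the strongest. The peak with the best rank was in the 3′ UTR of Erg, which encodes an ETS-family transcription factor, at chr16:95581761-95582138, with a signal of 980.4 and rank 20. It lay in the last of 12 exons, 50669 bp from the nearest protein-coding TSS, which was that of Erg itself. A peak in the last exon of a processed transcript of Phf15, a PHD-finger protein gene, followed at rank 30 with a signal of 863.7. Cmya5 came next at rank 33 with a signal of 835.3, in a coding exon of 9310 bp, the second of 13. Cmya5 encodes myospryn, a large protein known from striated muscle.

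Both replicates held these peaks near the top of their own lists. The mm9 list combines both replicates, so replicate values come from the mm10 lists, which are ranked separately and hold 300000 intervals each. Erg ranked 44 in replicate 1 (signal 157.9) and 54 in replicate 2 (signal 205.9). Phf15 ranked 64 and 39, and Cmya5 ranked 47 and 115. These 3 peaks were thus high in both replicates, with only Cmya5 apart by over 2-fold in rank.

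A further 3 exonic peaks were among the 100 strongest of the mm9 list, all in first exons of processed transcripts. Grb10, an adaptor that dampens insulin receptor signalling, had rank 36 at 53 bp from the start of such a transcript and 14671 bp from its nearest protein-coding TSS. Its ranks in replicates 1 and 2 were 120 and 43. Arpc5l, a subunit of the actin-nucleating Arp2/3 complex, had mm9 rank 69 and ranks 111 and 44. Snx11, a sorting nexin, had mm9 rank 97 and ranks 93 and 144, with its summit 20 bp from a non-coding TSS. In all, 6 exonic peaks were in the top 100 and 26 in the top 1000.

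The 20 strongest exonic peaks comprised 11 in non-coding exons, 5 in 3′ UTRs and 4 in coding exons. Those in non-coding exons also included the lincRNA genes Gm2885 (rank 170), Gm17433 (rank 315) and 4933433G15Rik (rank 537), and non-coding transcripts of Ncf1 (rank 318), Afap1 (rank 350), Hmgn3 (rank 392) and Rnf122 (rank 555). Ncf1 encodes a cytosolic subunit of the phagocyte NADPH oxidase. The 3′ UTR peaks after Erg were in Pik3r3 (rank 302), a regulatory subunit of phosphoinositide 3-kinase, Haus6 (rank 507), a subunit of the augmin complex of the spindle, Mettl8 (rank 587), an RNA methyltransferase, and Pla1a (rank 643), a phospholipase. The coding peaks after Cmya5 were in Lrba (rank 211), Ahnak (rank 263) and Cage1 (rank 357). Of the 20, 3 held a MEF2 consensus and 6 lay within 1 kb of the TSS of some non-coding transcript.

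As a whole, exonic peaks were weaker than the distal peaks around them. Their median rank was 9116 (95% interval from order statistics 8558 to 9726), with quartiles 4735 and 13188. The median rank was 7816 for intronic, 7614 for intergenic and 10314 for promoter peaks. The stronger 50% of the mm9 list took in 44.6% of exonic peaks (40.4 to 48.8) and 53.7% of intronic ones (52.5 to 54.9), a difference of -9.12 percentage points (95% Newcombe interval -13.5 to -4.67). The top 20% of the list took in 17.4% of exonic and 23.0% of intronic peaks, a difference of -5.62 points (-8.80 to -1.99). Such intervals cover counting error over peaks only, neighbouring peaks are not independent, and with 1 group no test over samples exists.

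By the share in the stronger 50%, coding peaks were the weakest of the 3 larger classes. Coding exons had a median rank of 10199, close to that of promoters, and 36.8% of them were in the stronger 50%, a difference from intronic peaks of -16.9 points (-24.4 to -8.66). The 3′ UTR class had a median rank of 8811 with 49.1% in the stronger 50%, and the non-coding class 8541 with 47.4%. The share of coding peaks in the stronger 50% differed from that of 3′ UTR peaks by -12.3 points (-22.8 to -1.37) and from that of non-coding peaks by -10.6 points (-20.8 to 0.0472), an interval that just included 0. By the share in the top 20% of the list, coding peaks (13.2%) and 3′ UTR peaks (13.9%) were nearly alike, at -9.82 points (-14.5 to -3.25) and -9.14 points (-13.6 to -3.12) from intronic peaks. Non-coding peaks, with 24.7%, were at 1.73 points (-3.91 to 8.33), so the deficit of exonic peaks in the top 20% was not seen in that class. The 12 peaks in 5′ UTRs had a median rank of 12714, and 3 of them were in the stronger 50%. Only 4 coding peaks were in the top 1000, those in Cmya5, Lrba, Ahnak and Cage1.

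**Figure D1:**
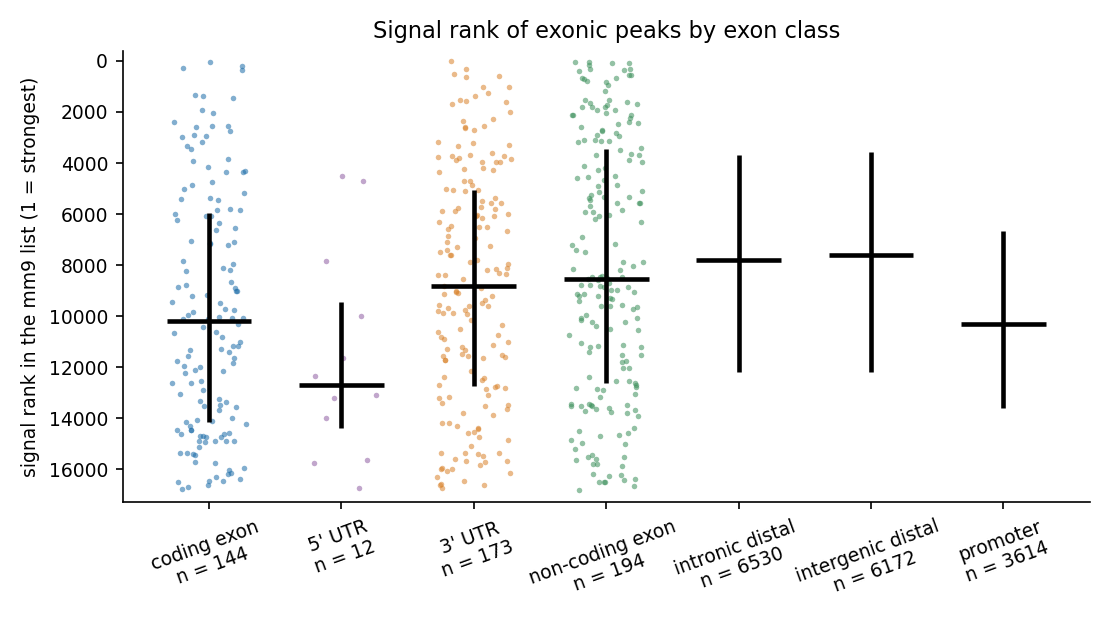
Signal rank in the mm9 list (vertical axis, 1 is the strongest and at the top) for every exonic peak, 1 point a peak, by exon class; horizontal bars are medians and vertical bars quartiles, given alone for intronic, intergenic and promoter peaks. The medians are 10199 for coding exons, 12714 for 5′ UTRs, 8811 for 3′ UTRs and 8541 for non-coding exons, against 7816 for intronic peaks, and the points of each class but the 5′ UTR spread over nearly the whole list.

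Coding exons are short, and most intervals ran past them. The exon under a coding summit had a median length of 217.5 bp (quartiles 138.8 and 1009), while the median exonic interval was 356 bp wide. In 90 of 144 cases (62.5%) the exon was shorter than the interval, and at the median 56.6% of an interval was coding. The summit lay a median of 57.5 bp from the nearer edge of its exon, and 62 summits lay within 50 bp of one. Only 26 intervals were coding throughout. By place, 105 of the exons were internal, 35 last, 3 single and 1 first.

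The strongest coding peaks were found in both very long and ordinary exons. Ahnak, which encodes a giant scaffold protein, had its peak at chr19:9081432-9081741, wholly inside the last exon of 17497 bp, the longest in the class, with signal 448.7. Its ranks were 360 in replicate 1 and 518 in replicate 2. Lrba, which encodes a protein of vesicle traffic that is needed for normal immune function, had its peak at chr3:86445391-86445676 in exon 50 of 62, 141 bp long, with a signal of 494.8. Exons made up 49.3% of that interval, and its replicate ranks were 307 and 217. Cage1, a cancer antigen gene, had its peak in an 88 bp exon with a signal of 387.0 and replicate ranks of 596 and 596.

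**Figure D2:**
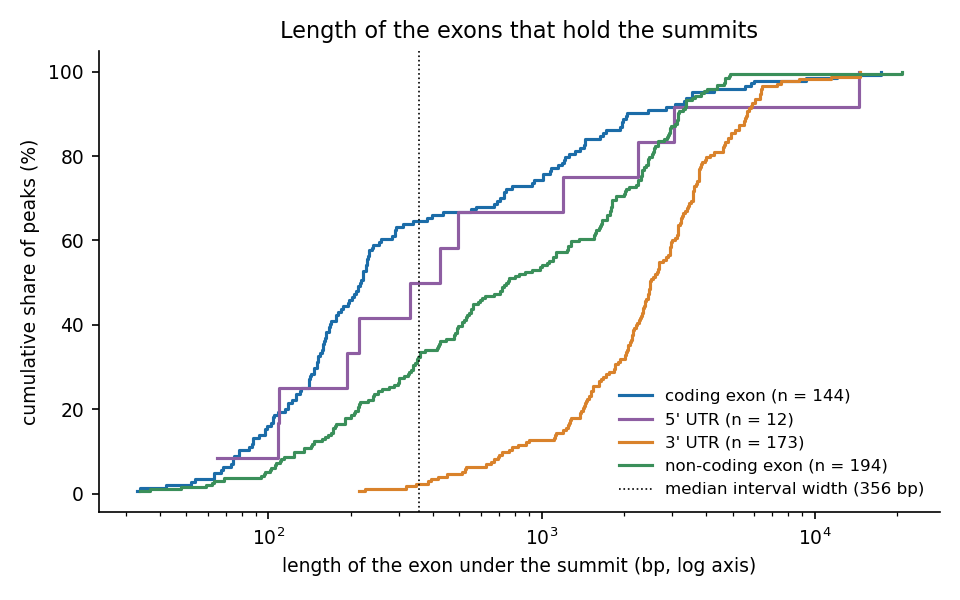
Cumulative share of exonic peaks (vertical axis, %) by the length of the exon under the summit (horizontal axis, bp, log scale) for each exon class; the dotted line is the median interval width of 356 bp. Coding exons have a median of 217.5 bp and 3′ UTR exons of 2488 bp, so the curves of these classes lie on opposite sides of the interval width for most of their height.

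The 5′ UTR peaks were few and weak. The 5 strongest were in Trafd1 (rank 4528), a TRAF-type zinc finger protein that restrains innate immune signalling, BC030307 (rank 4714), Fam113b (rank 7854), Nup160 (rank 10001), a nuclear pore subunit, and A930004D18Rik (rank 11638). Of the 12 exons 8 were internal, 3 last and 1 first; the rule itself removes summits near the start of a first exon. Trafd1 ranked 3234 in replicate 1 and 5061 in replicate 2, and Nup160 ranked 6477 and 15041. No MEF2 consensus was found in the 12 windows, which allows a share of up to 25% (3 counts of 12, counting error only).

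By their class, peaks in 3′ UTRs lie towards the end of a gene, so their place is given as a description. The exon was the last in 166 of 173 cases and the only one in 7, with a median length of 2488 bp, and 151 intervals (87.3%) lay wholly within exons. The summit was a median of 648 bp from the end of the nearest protein-coding transcript, and 110 (63.6%) were within 1 kb of one. For 73 of them (42.2%) the nearest protein-coding TSS belonged to a gene other than the host, at a median of 13715 bp. Only 15 of these 73 were within 5 kb of it, so a close promoter of a neighbour was the minority case. Haus6 was one such case, with the TSS of Rraga, a small GTPase that signals amino acid supply, 4623 bp from the summit. Where the host's own TSS was the nearest, in 100 peaks, the median distance was 11083 bp.

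The non-coding class was mixed, and many of its summits lay at the start of a non-coding transcript. The transcript was a processed transcript for 58 summits, one with a retained intron for 50, a lincRNA for 38, an antisense RNA for 26 and one subject to nonsense-mediated decay for 6. A protein-coding gene was the host of 97 of the 194, and 117 summits lay inside the span of some coding transcript, in its introns. A TSS of any biotype lay within 1 kb of 90 of the 194 summits (46.4%), at a median of 84 bp, and within 200 bp of 63. Of the 64 summits in first exons 60 were within 1 kb of a TSS. The same held for 15 of 144 coding, 2 of 12 5′ UTR and 8 of 173 3′ UTR summits, 115 of the 523 in all.

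No difference in strength was resolved between peaks near a non-coding start and the others of the class. The 90 near such a TSS had a median rank of 8638 and the 104 others 8322, and the stronger 50% held 44.4% (34.6 to 54.7) and 50% (40.6 to 59.4) of them, a difference of -5.56 points (-19.2 to 8.40). Phf15 is an example away from any start, at 12255 bp from the nearest TSS of any kind. Gm2885 is one at a start, with its summit 35 bp from the TSS of the lincRNA and 45171 bp from the TSS of Ezr. Leaving out every peak within 1 kb of a TSS of any biotype left 408 exonic peaks with a median rank of 9388.

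**Figure D3:**
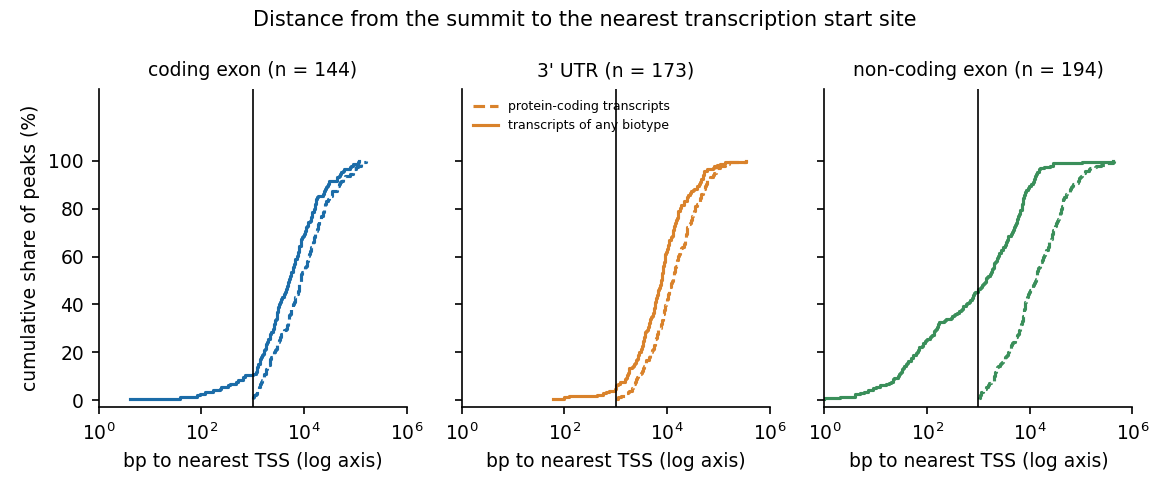
Cumulative share of peaks (vertical axis, %) by the distance from the summit to the nearest TSS (horizontal axis, bp, log scale) in 3 exon classes; dashed lines count TSSs of protein-coding transcripts and solid lines those of any biotype, and the vertical line marks 1 kb. The dashed lines start at 1 kb by the rule, while the solid line has reached 46.4% there in the non-coding class and 10.4% and 4.62% in the coding and 3′ UTR classes.

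The limit of 1 kb cut through a continuous range of distances. Just inside the set were Evi2a (1011 bp from the nearest protein-coding TSS, rank 1437), 5031425E22Rik (1024 bp, rank 4719) and Galt (1027 bp, rank 7863). Just outside it were Hcrt (992 bp, rank 9371), Gpd1 (974 bp, rank 4126) and Inhbe (958 bp, rank 13308).

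Fewer exonic peaks held a MEF2 element than intronic ones, and coding exons had the lowest share of the 3 larger classes. The MEF2 consensus was found in 31 of 523 exonic peaks (5.93%, 4.21 to 8.29), 588 of 6530 intronic peaks (9.005%, 8.33 to 9.72), 7.57% of intergenic and 3.18% of promoter peaks. The exonic share differed from the intronic one by -3.08 points (-4.94 to -0.621), and the interval of its difference from the intergenic share included 0 (-3.49 to 0.808). In coding exons the element was in 3 of 144 peaks (2.08%, 0.711 to 5.95), a difference from intronic peaks of -6.92 points (-8.47 to -3). In 3′ UTRs it was in 14 of 173 (8.09%, 4.88 to 13.1) and in non-coding exons in 14 of 194 (7.22%, 4.35 to 11.7). The coding share differed from that of 3′ UTRs by -6.01 points (-11.2 to -0.986) and from that of non-coding exons by -5.13 points (-9.87 to -0.322). All 16839 peaks together had a share of 7.13%.

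The exonic windows were richer in G and C than other distal windows. Their median GC content was 50.5%, with 51.5% in coding exons, 54.0% in 5′ UTRs, 48.5% in 3′ UTRs and 50.5% in non-coding exons. Intronic and intergenic windows both had a median of 47.5% and promoter windows one of 62.4%. The part of base composition in the lower MEF2 share was not tested.

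The peaks with a strict MEF2 element, in which the outer bases of the consensus are also fixed, numbered 20. Besides Phf15, Rnf122, D730003I15Rik, Sh2d7, Dtnb, Nme7 and Usp34, printed earlier, the strict form was in non-coding exons of Gm16316, Gm17414, Shb, Etl4, Snrpc, Gm15232 and Gm17281, and in the 3′ UTRs of Rab14, Cenpi, Cyyr1, Usp43, Atp1b4 and Commd1. Rab14, a small GTPase of endosomal traffic, had 2 elements in 1 window. The 10 strongest peaks with the consensus were those in Erg, Phf15, Rnf122, D730003I15Rik, Gm13383, Sh2d7, Dtnb, 2900073G15Rik, Gm16316 and Aff1, with ranks 20, 30, 555, 798, 924, 1262, 1524, 1566, 1810 and 1983. The strict share, 3.82% of exonic and 4.502% of intronic peaks, differed by -0.678 points with an interval that included 0 (-2.11 to 1.39).

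Peaks with the element were the stronger ones, in exons as elsewhere. The 31 exonic peaks with a MEF2 consensus had a median rank of 5037 (quartiles 1688 and 9494) and the 492 without it 9243. Among intronic peaks the medians were 4940 with and 8090 without. In the stronger 50% of the list, 9.44% of exonic peaks (6.32 to 13.9) and 11.5% of intronic peaks had the element. In the weaker 50%, 3.10% of exonic peaks (1.64 to 5.79) and 6.15% of intronic peaks had it. The centre of the element lay a median of 20.5 bp from the summit in exonic and 16.5 bp in intronic peaks, and within 20 bp in 15 of 31 and 344 of 588. By class that count was 10 of 14 in non-coding exons, 4 of 14 in 3′ UTRs and 1 of 3 in coding exons.

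In 2 of the 3 coding exons the element began a codon. The first base of the element fell on codon position 1 in Nme7, a member of the nucleoside diphosphate kinase family, and in Usp34, a ubiquitin-specific protease. In Bbs2, a subunit of the BBSome of cilia, the element did not lie within a single coding segment. The Nme7 peak had rank 2030 and lay in an exon of 167 bp, the Bbs2 peak rank 7838 in one of 132 bp, and the Usp34 peak rank 13522 in exon 69 of 80, 158 bp long. The Bbs2 peak ranked 19214 in replicate 1 and 8121 in replicate 2. The Nme7 and Usp34 peaks were not matched to a peak on mm10, so replicate ranks cannot be given for them.

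Beside intronic peaks, the coding class had fewer AP-1 sites and more ETS-type sites. AP-1 sites, matched as TGAGTCA on either strand, were in 6 of 144 coding peaks (4.17%, 1.92 to 8.79) against 12.4% of intronic ones, a difference of -8.21 points (-10.6 to -3.52). All 523 exonic peaks together also had a lower share, 7.84%, at -4.53 points (-6.70 to -1.80) from intronic ones. The coding share of AP-1 differed from that of 3′ UTRs by -4.50 points, with an interval that included 0 (-10.1 to 1.20). From that of non-coding exons it differed by -6.14 points (-11.7 to -0.321). The ETS-IRF composite element, bound by PU.1 or a relative together with an IRF protein in lymphoid and myeloid cells, was in 14 of 144 (9.72%, 5.88 to 15.7) against 5.05%, a difference of 4.67 points (0.786 to 10.6). The PU.1 site GAGGAAGT was in 10 of 144 (6.94%) against 3.63%, a difference of 3.32 points (0.149 to 8.70). Together 23 coding peaks held 1 or both of these, and 1 held both, which was Parp1. Over all 16839 peaks the shares were 10.7% for AP-1, 4.39% for the composite and 3.24% for the PU.1 site. Both motifs contain the ETS core, and in Parp1 the matches overlap. Set beside 3′ UTRs, the composite share of coding exons differed by 5.10 points with an interval that included 0 (-0.620 to 11.5) and the PU.1 share by 5.21 points (0.706 to 10.7). Beside non-coding exons the PU.1 share differed by 1.79 points, with an interval that included 0 (-3.35 to 7.64).

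These are the composite elements of the 3 strongest coding peaks that hold one, and of Parp1, on the strand of the host gene with the element in capitals; they were chosen after their values were seen.
Cmya5: cagtgaaaacGGAAGTGAAAcaggagtcca
Evi2a: gcacgaagaaGGAACTGAAAaactcaacta
9230106D20Rik: acattgcttgGGAAGTGAAAcatctctgct
Parp1: agaagatggaGGAAGTGAAAgcggccaacg

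The composite elements in coding exons shared a strand and mostly a reading frame. Of 13 examined, 12 ran along the coding strand, and in 9 the first base fell on codon position 3, as in Cmya5, 9230106D20Rik and Parp1. In Evi2a it fell on position 1. The Cmya5 element lies at chr13:93864286-93864295, with its centre 18.5 bp from the summit. The 14 coding peaks with the composite had a median rank of 7986. Of the 8 elements in 3′ UTRs, 4 ran along the strand of the gene. How often such a sequence takes the coding strand or codon position 3 in coding sequence at large was not examined.

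Non-coding exons showed another mix. The composite was in 2 of 194 (1.03%, 0.283 to 3.68), a difference from intronic peaks of -4.02 points (-4.96 to -1.33), and the coding class exceeded it by 8.69 points (4.02 to 14.7). AP-1 was in 20 of 194 (10.3%, 6.77 to 15.4), an interval that takes in the intronic 12.4%. The GC box of Sp1, GGGCGG, was in 13 of 194 (6.70%) against 2.36% of intronic peaks, a difference of 4.34 points (1.57 to 8.78), and in 8 of the 90 peaks near a TSS of any biotype. It was in 26.6% of promoter peaks and 8.16% of all peaks. The GC box was also in 4.86% of coding, 4.05% of 3′ UTR and 5.16% of all exonic peaks. The classes were not compared with each other for it. CTCF sites were not particular to this class: they were in 8 of 194 (4.12%), in 6 of 144 coding peaks (4.17%), and in 18 of all 523 exonic peaks (3.44%) against 1.65% of intronic ones, a difference for the latter of 1.79 points (0.489 to 3.74), but the interval of the difference from the intergenic share included 0 (-0.740 to 2.56). In all 128 differences from intronic or intergenic peaks were computed, and the interval left out 0 in 33. A further 20 were computed between classes and subsets, and none of the intervals was adjusted for their number.

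**Figure D4:**
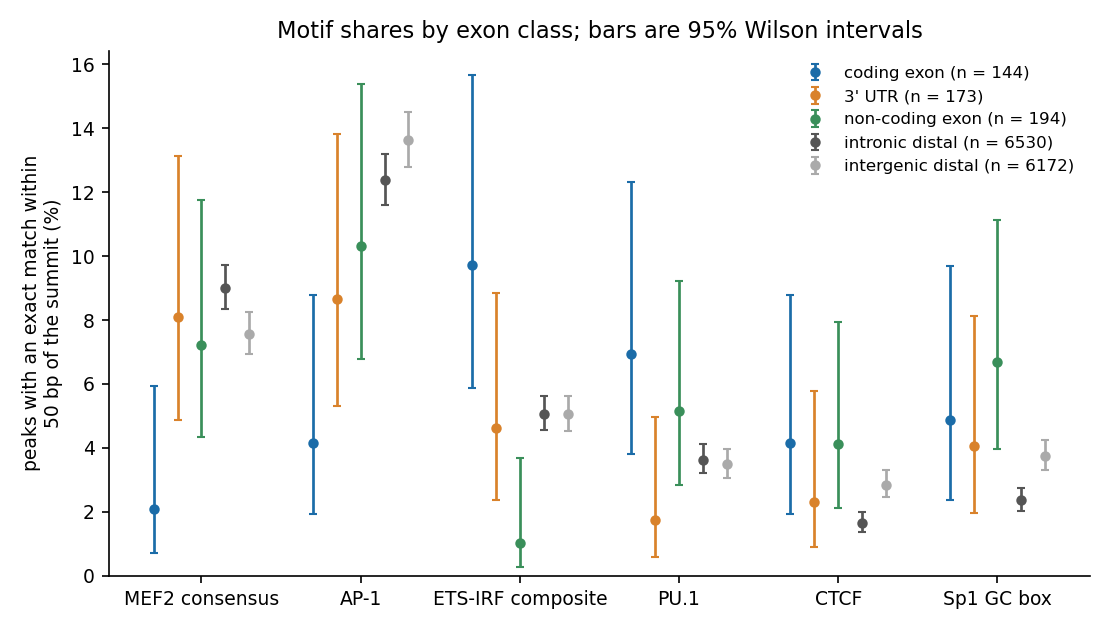
Share of peaks with an exact match to 6 motifs within 50 bp of the summit (vertical axis, %), for 3 exon classes and for intronic and intergenic peaks; points are shares and bars 95% Wilson intervals. Coding exons are lowest for MEF2 (2.08%) and AP-1 (4.17%) and highest for the ETS-IRF composite (9.72%), and the 3′ UTR and non-coding classes have MEF2 shares of 8.09% and 7.22%.

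Most exonic peaks had a counterpart in the mm10 sets. Of the 496 whose host gene could be placed in the mm10 gene table, 410 (82.7%, 79.1 to 85.7) had a matching optimal peak. A match lay within 100 bp of the same distance from the same end of the gene. The share of intronic peaks was 82.8%. By class it was 83.2% for coding exons, 81.4% for 3′ UTRs, 84.7% for non-coding exons and 7 of 11 for 5′ UTRs. It was 87.0% in the stronger 50% of the mm9 list and 79.1% in the weaker. Of the 410 matched peaks 377 (92.0%, 88.9 to 94.2) were also in the stricter conservative set. That set holds 28217 peaks, against 31497 in the optimal set. Both builds use the same libraries, so these shares compare callings, not experiments. A peak whose gene ends differ between the mm9 and mm10 annotations can also count as unmatched, so the shares may be too low.

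The replicates ordered exonic peaks less alike than intronic ones. Of the 410, 407 had an interval in the lists of both replicates, with a median rank of 8690 in replicate 1 and 9064 in replicate 2. Neighbouring peaks could share a replicate interval, as the 2 in Synrg and the 2 in C030013C21Rik did, and each peak was counted. The ranks were within 2-fold of each other for 238 (58.5%, 53.6 to 63.2), against 66.6% of 5250 intronic peaks (65.3 to 67.9), a difference of -8.11 points (-13.1 to -3.25). Spearman's rho between the replicate ranks was 0.55 over these 407 peaks and 0.691 over the intronic ones, as a description over peaks that come from the same 2 libraries. Coding exons had the lowest value of the 3 larger classes, 0.354 over 118 peaks, against 0.588 over 138 in 3′ UTRs and 0.64 over 144 in non-coding exons. Among exonic peaks in the stronger 50% of the mm9 list, rho was 0.659 and 64.4% were within 2-fold, and for intronic ones 0.721 and 71.4%, a difference in the latter of -7 points (-14.1 to -0.394). For the 46 coding peaks there, rho was 0.612. In the weaker 50% rho was -0.183 over 213 exonic peaks, -0.0649 over 2292 intronic ones and -0.31 over 72 coding ones. There 53.1% of the exonic and 60.3% of the intronic peaks were within 2-fold. The 50% cut was made on a signal that combines both replicates, which narrows its range and can by itself lower rho. These values therefore cannot show whether the replicates share an order among the weaker peaks.

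Where the replicates were far apart, replicate 2 more often had the better rank. It was better by over 2-fold for 95 exonic peaks and replicate 1 for 74, and among intronic peaks for 1171 and 583. The coding peak in Trpv3, a heat-gated ion channel gene, ranked 293614 in replicate 1 and 7123 in replicate 2. That in Ren1, the renin gene, ranked 182880 and 11872. The interval matched to the non-coding peak in D630008O14Rik went the other way, at 690 in replicate 1 and 30672 in replicate 2. That peak ranked 12045 in the mm9 list and 11326 in the optimal set. The strongest interval overlapping by 1 bp or more was taken. Whether the one from replicate 1 belongs to a neighbouring peak was not tested. Of these 3, chosen after their values were seen, only D630008O14Rik was in the conservative set.

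**Figure D5:**
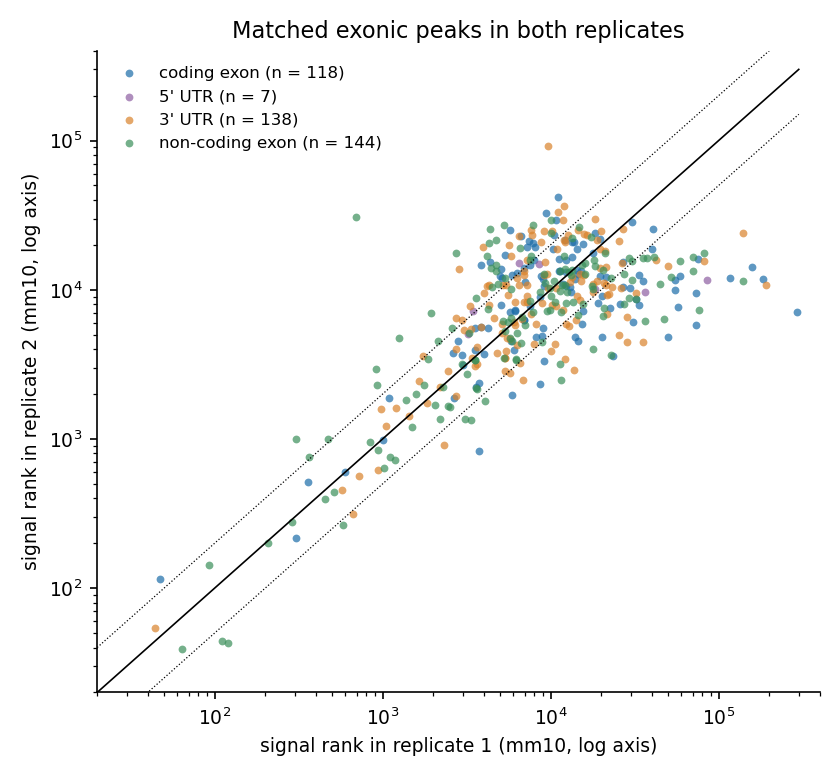
Signal rank in replicate 1 (horizontal axis) against replicate 2 (vertical axis), both on log scales, for the 407 exonic peaks found in both mm10 lists, coloured by exon class; the solid line marks equal ranks and the dotted lines a 2-fold difference. The few strongest peaks lie close to the line, and the weaker ones spread widely, with a tail of peaks of poor rank in replicate 1 at the right.

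No difference from intronic peaks was resolved in how often another peak lay close by. Another peak lay within 5 kb of 38.4% of them (34.4 to 42.7), of 40.4% of intronic (39.2 to 41.6) and of 38.8% of intergenic peaks. The exonic share differed from the intronic one by -2 points (-6.24 to 2.40).

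A few genes of the B cell and signalling lists carried a peak in an exon. Of all 22238 protein-coding genes, 400 (1.80%) were the host of an exonic peak. Of 39 genes of B cell identity and B cell receptor signalling these were 3 (7.69%): Blnk, the adaptor that links the receptor to its effectors, Ebf1, a B lineage transcription factor, and Ikzf3, which encodes Aiolos. Ikzf3 had rank 1921 at 123 bp from the start of a processed transcript, with replicate ranks of 911 and 2937. Blnk had rank 4560 in the last exon of a transcript with a retained intron, with ranks of 5840 and 6444. Ebf1 had rank 8997 in a coding exon of 74 bp, with ranks of 11807 and 10935.

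Of 35 immediate early and NF-kB pathway genes 3 (8.57%) were hosts, all by a peak in the 3′ UTR. These were Ier5 (rank 6079), Zfp36l1 (rank 7078), which promotes decay of AU-rich mRNAs, and Ier2 (rank 7792). Ier5 and Ier2 are single-exon genes, and their summits in the 3′ UTR lay only 1555 and 1114 bp from the TSS. Their replicate ranks were 5752 and 2770 for Ier5 and 21620 and 6902 for Ier2. Of 20 chromatin regulators 2 (10%) were hosts, namely Ezh2, the methyltransferase of Polycomb complex PRC2, at rank 5329, and the DNA methyltransferase gene Dnmt3a, at rank 15347. Dnmt3a ranked 74953 in replicate 1 and 16195 in replicate 2, and it was not in the conservative set.

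The other lists had 1 host or none. Of 22 T cell genes 1 (4.55%) was a host, Cd28, with a 3′ UTR peak at rank 6567 and replicate ranks of 5826 and 16965. None of 40 striated muscle genes and none of the 8 genes of the MEF2 family and class IIa histone deacetylases was a host. Against 1.80% of all genes, a count of 0 in lists of these sizes is no shortage, and the counts of 1 to 3 in the other lists were not tested. Cmya5 was not on the muscle list, so the count of 0 there does not cover every muscle gene. Myl4, with peaks in non-coding exons at ranks 2805 and 13714, and Cacna1s, with one at rank 2885, were also hosts outside that list.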

How the data were processed

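Per the file headers and the deposited texts, the authors supplied 6 peak lists: 1 on mm9 from both replicates, and on mm10 1 for each replicate, a pooled one, and the optimal and conservative sets. Column 7 is the signal per peak as deposited by the authors, and it served for ranking inside each list alone. The sources used here do not give the peak caller or the aligner.

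Coordinates are 1-based on mm9 (NCBIM37) with GENCODE vM1. mm10 genes are from the RefSeq table of GRCm38.p6. The builds were joined by gene symbol or synonym and by the distance of the summit from the same end of the gene, within 100 bp, and no coordinates were converted. Replicate intervals overlapped the optimal peak by 1 bp or more, and the strongest was taken. Motif scan, exon lookup and intervals were checked on simulated data. Scripts ran in Python 3.11.15 with pandas 2.3.3, numpy 2.4.6 and scipy 1.17.1, and figures were drawn with matplotlib 3.10.9.

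The peaks, 6 gene lists and 14 motifs (3 of them MEF2 forms) were chosen with earlier results of these data known. Named genes are the hosts of the 20 strongest exonic peaks, of the 5 strongest in each class, of every strict MEF2 element and the 10 strongest with the consensus, of 3 or more peaks, of listed genes, and the 3 nearest on each side of the 1 kb limit. 1 gene that these rules select is not reported here. Others were chosen after their values were seen. No test over samples was possible with 1 group.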

Additional observations from a re-analysis of the deposited data

How the results depend on the processing

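Counts depend on the annotation. Using only exons of protein-coding transcripts left 329 exonic peaks, and taking only the stronger 50% of mm9 peaks left 233, with 53 in coding exons, 3 in 5′ UTRs, 85 in 3′ UTRs and 92 in non-coding exons. Counting TSSs of every biotype lowered the non-coding class to 104. The MEF2 share of exonic peaks was 3.82% with the strict form, 9.75% with the shorter core form and 9.44% in the stronger 50%. The difference from intronic peaks stayed below 0 as a point value in each alternative run. It went from -4.89 points with the whole interval to -0.678 with the strict form, whose interval included 0 (-2.11 to 1.39). In the stronger 50% it was -2.03 points, and the exonic interval (6.32 to 13.9) took in the intronic 11.5%. In the weaker 50% the exonic interval (1.64 to 5.79) lay below the intronic 6.15%. The part of signal strength in the lower MEF2 share was not tested. The share with an mm10 counterpart was 75% at a tolerance of 50 bp and 86.1% at 200 bp, and leaving out each replicate gave 73.8% to 85.1%, the lowest without replicate 2. Read depth is unknown, so no interval covers sequencing error.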

Other observations

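A few exonic peaks lay on genes of small and structural RNAs, chosen here after their values were seen. Snord118, which encodes the U8 small nucleolar RNA that takes part in ribosomal RNA processing, had a peak of rank 3138 with its summit 2 bp from the TSS, and replicate ranks of 11485 and 2492. U2 small nuclear RNA genes on chromosomes 11 and 12 had peaks of rank 4283 and 11213, at 118 and 170 bp from their TSS. A 5S ribosomal RNA gene had one of rank 13673 at 18 bp. Neat1, the long non-coding RNA that builds paraspeckles, had a peak of rank 9590 in its single exon of 20771 bp, the longest under any exonic peak, with replicate ranks of 17951 and 10066. U2 and 5S genes have many near-identical copies, and reads from such copies cannot be told apart.

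Some genes carried 2 exonic peaks. Stat3, a transcription factor activated by cytokines, had a peak of rank 8869 in the first exon of a transcript with a retained intron, 138 bp from its TSS, and another of rank 10621 in a coding exon of 152 bp. Their replicate ranks were 36618 and 6215 for the former and 17836 and 17507 for the latter. Bhlhe41, a repressor of the circadian clock, had both of its peaks in the 3′ UTR, at ranks 3814 and 9606, with replicate ranks of 2752 and 3999 for the stronger and 5549 and 9226 for the weaker.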
